A study of Homo sapiens with 6 samples.

Results

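Snail, the product of SNAI1, is a zinc finger repressor that drives epithelial-mesenchymal transition (EMT), and its protein is short-lived because ubiquitin ligases mark it for the proteasome. Most of these ligases are cullin-RING complexes, in which an exchangeable substrate receptor holds the target while a cullin scaffold and a RING subunit bring in the ubiquitin-loaded E2 enzyme. F-box proteins are the receptors of the SKP1-CUL1-F-box (SCF) type, SOCS-box proteins such as SPSB3 are those of the CUL5 type, and TRIM proteins carry a RING domain of their own. The 10 genes described here, FBXL14, FBXL5, BTRC, FBXW11, FBXW7, FBXO11, FBXO45, SPSB3, TRIM50 and TRIM21, were taken as a list of receptors reported to ubiquitinate Snail or related EMT factors, and were found by Ensembl identifier among 23406 features. Transcript levels were measured, so the values say nothing of the ligases' activity or of the Snail protein.

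The libraries came from Hep-3B (Hep3B), a human hepatocellular carcinoma line labelled wild type, in which either NXN, the gene of the redox protein nucleoredoxin, was knocked down by shRNA (shNXN) or a control shRNA was expressed (shControl). Both groups were transduced with lentivirus, selected in puromycin at 2 μg/mL for 1 week, and collected on days 7, 9 and 11, with 1 library per group and day. RNA libraries were built with a SMARTER mRNA-seq kit. The labels do not say which shRNA sequence was used or whether the days were separate cultures, so the replicates of a group are its 3 days. A test on group alone sets the difference between the groups against the spread between these samples. A test with the day as a block sets it against the spread left once the days are accounted for. The estimated counts summed to between 15349382 and 16332589 per library. All 10 hepatocyte and hepatoma markers were above 1 FPKM (fragment counts scaled to transcript length and library size) in every library, with a summed level of 7890 to 16900 FPKM in shControl and 4110 to 9310 in shNXN. Of the 5 leukocyte markers, PTPRC stayed at or below 0.04 FPKM and CD3E was listed at 0, while LYZ (78.2 to 233 FPKM) and CD68 (43.6 to 69.3 FPKM) were detected in all libraries. Summed fibroblast markers were 0.97 to 1.80 FPKM in shControl and 1.12 to 1.27 in shNXN, and the 4 endothelial markers in the table summed to at most 0.02 FPKM. The 5 leukocyte markers together were at 130 to 169 FPKM in shControl and 174 to 291 in shNXN, nearly all of it LYZ and CD68, and the part of this or of the hepatocyte markers in the results was not tested.

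NXN itself was at 181, 138 and 143 CPM (counts scaled to library size and TMM factors) in shControl on days 7, 9 and 11, and at 42.7, 47.5 and 39.5 in shNXN. Each shNXN library was below each shControl library, and the fitted log2 fold change was -1.83 ± 0.16 (SE, n = 3 per group, edgeR quasi-likelihood test, adjusted p = 0.0378). SNAI1, at 2.56, 3.63 and 3.25 CPM in shControl and 5.29, 4.41 and 4.25 in shNXN, was not called (log2 fold change 0.56 ± 0.26, adjusted p = 0.179).

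Among the 10 ligase genes, FBXL5 and FBXO11 fell, to 0.323 and 0.316 of their mean control CPM, and none of the other 8 passed the test. FBXW7, FBXO45, BTRC and FBXW11 had negative estimates, FBXL14, SPSB3 and TRIM21 positive ones, and TRIM50 was near 0. A gene was called at a Benjamini-Hochberg adjusted p under 0.05 over all 14071 tested features, and by this rule 3.39% of all features were called in either direction and 3.21% as lower, against 2 of the 10 genes, both lower. At an unadjusted p under 0.05 there were 6 of 10, against 32.9% of all features. The median log2 fold change of the 10 was -0.43, beside 0.03 over all tested features. In bulk RNA, fewer cells with a transcript and less of it per cell cannot be told apart.

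FBXO11 is the receptor that binds Snail phosphorylated by protein kinase D1. Its level was 102, 92.2 and 81.9 CPM in shControl on days 7, 9 and 11 and 25.7, 18.0 and 43.5 CPM in shNXN. The groups did not overlap, and the shNXN library of day 11 was the highest of its group. The log2 fold change was -1.66 ± 0.32 (SE, adjusted p = 0.0473). FBXL5, whose hemerythrin-like domain senses iron and which is best known for the turnover of the iron regulatory protein IRP2, was at 41.9, 58.9 and 49.4 CPM in shControl. In shNXN it was at 11.9, 12.1 and 24.4 CPM, again without overlap and again highest on day 11. Its log2 fold change was -1.63 ± 0.32 (SE, adjusted p = 0.0487). Both calls lay just inside the threshold. They were lost without shControl day 7, 9 or 11 or without shNXN day 7 or 9, where FBXO11 kept a log2 fold change of -1.57, -1.65, -1.69, -1.58 and -1.41 (adjusted p = 0.133, 0.0570, 0.0776, 0.225 and 0.162) and FBXL5 one of -1.73, -1.49, -1.60, -1.45 and -1.46 (adjusted p = 0.133, 0.0672, 0.0784, 0.225 and 0.171). Of all tested features, 0 were called in these fits, apart from 248 of 14325 without shControl day 9. NXN itself also lost its call in them, apart from that without shControl day 9 (adjusted p = 0.0327). Without shNXN day 11 both held, at -2.07 for FBXO11 (adjusted p = 0.00137) and -2.06 for FBXL5 (adjusted p = 0.00131), where 25.8% of all features were called. Neither was called after a correction for transcript GC content (-0.79 and -0.81) or on the FPKM scale (-0.71 and -0.77), as set out further on.

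**Figure D1:**
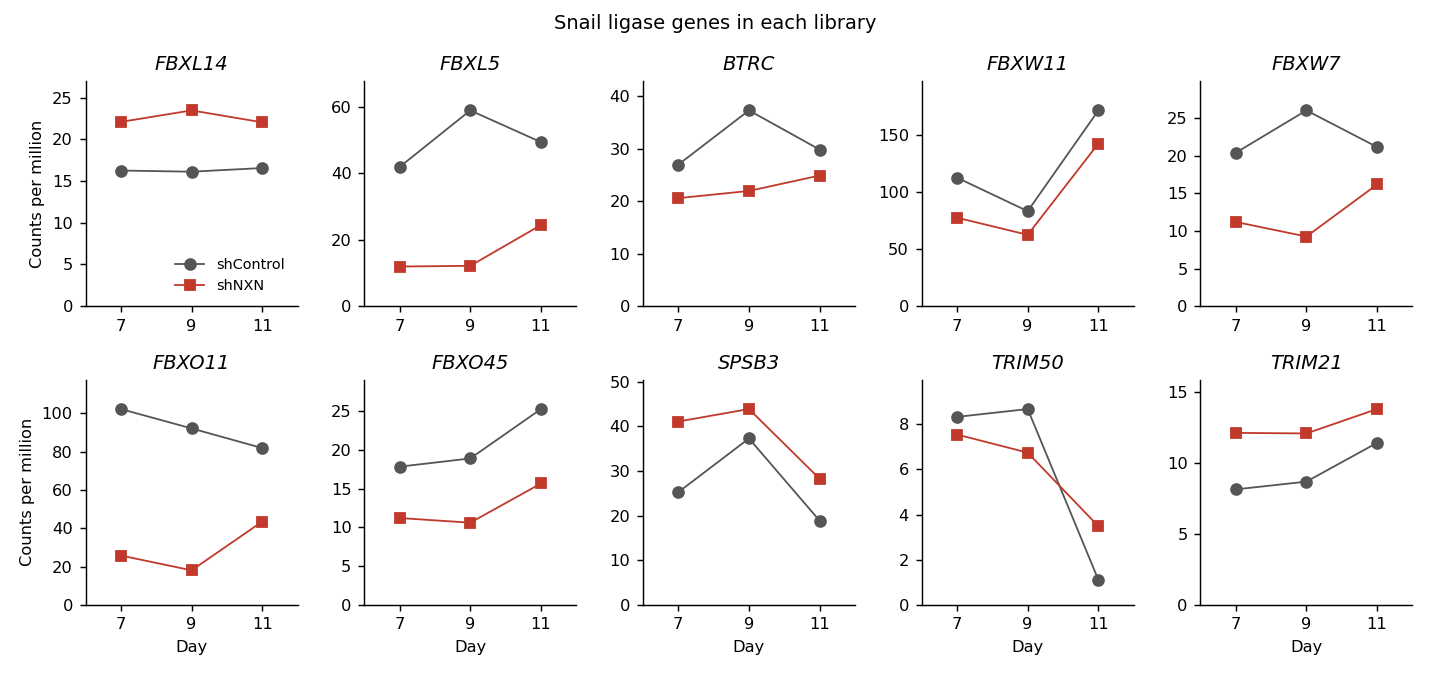
Each panel plots the CPM of 1 ligase gene (y axis, starting at 0) against the day of collection (x axis), with shControl as grey circles and shNXN as red squares, 1 library per point. FBXO11 and FBXL5 show the widest gap, from 81.9 to 102 against 18.0 to 43.5 CPM for FBXO11, and the lines of TRIM50 cross.

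FBXW7, the receptor of cyclin E and MYC that reads phosphorylated degrons, was at 20.4, 26.0 and 21.2 CPM in shControl and 11.2, 9.26 and 16.2 CPM in shNXN. The groups were separate, with a log2 fold change of -0.88 ± 0.26 (SE, adjusted p = 0.0791). FBXO45, which works with the RING protein MYCBP2, was at 17.8, 18.9 and 25.3 CPM in shControl and 11.2, 10.6 and 15.7 CPM in shNXN. Its groups were separate as well (log2 fold change -0.73 ± 0.24, SE, adjusted p = 0.101). When the day was entered as a replicate block, FBXO45 was called lower (-0.73 ± 0.15, SE, adjusted p = 0.0319) beside FBXO11 (-1.75 ± 0.30, adjusted p = 0.0232) and FBXL5 (-1.70 ± 0.27, adjusted p = 0.0206), while FBXW7 stayed at an adjusted p of 0.0528. These 3 of 10 stand beside 23.3% of all features called with the block, and 17.0% called lower.

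BTRC and FBXW11 encode the paralogs β-TrCP1 and β-TrCP2, which read the degron that GSK3 writes on Snail. BTRC was at 27.0, 37.3 and 29.8 CPM in shControl and at 20.6, 21.9 and 24.9 CPM in shNXN, with each shNXN library below each shControl library. Its log2 fold change was -0.48 ± 0.19 (SE, adjusted p = 0.136, and 0.0807 with the block). FBXW11 was the more abundant of the pair and moved mainly with the day, at 113, 83.3 and 172 CPM in shControl and 77.6, 62.6 and 143 CPM in shNXN. Its groups overlapped, although shNXN was the lower library on each day. The group-only estimate was -0.38 ± 0.37 (SE, adjusted p = 0.485), and the blocked one -0.41 ± 0.11 (adjusted p = 0.0514). Both genes had whole counts in every library, and how reads shared by the paralogs were assigned was not tested.

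FBXL14, the human counterpart of the receptor first described for Slug and Snail in frog neural crest, varied the least of the 10 within each group. It was at 16.3, 16.1 and 16.6 CPM in shControl and at 22.1, 23.5 and 22.0 CPM in shNXN. All shNXN libraries were higher, by a ratio of means of 1.38, and the log2 fold change was 0.47 ± 0.16 (SE, adjusted p = 0.107). TRIM21, a RING ligase known as a cytosolic antibody receptor, was at 8.13, 8.68 and 11.4 CPM in shControl and 12.1, 12.1 and 13.8 CPM in shNXN. These groups did not overlap either, and the log2 fold change was 0.43 ± 0.22 (SE, adjusted p = 0.213). SPSB3, the CUL5-type receptor, was at 25.2, 37.3 and 18.8 CPM in shControl and 41.1, 43.9 and 28.2 CPM in shNXN, higher on each day with overlapping groups (0.48 ± 0.29, SE, adjusted p = 0.284). With the replicate block, edgeR gave 0.51 ± 0.15 (SE, adjusted p = 0.0639) for SPSB3, and adjusted p-values of 0.0658 for FBXL14 and 0.105 for TRIM21, still without a call.

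TRIM50, a RING ligase with a narrow tissue range, was at 8.33, 8.68 and 1.10 CPM in shControl and 7.55, 6.74 and 3.48 CPM in shNXN. The day 11 libraries were the lowest of both groups, at 18 counts in shControl and 54 in shNXN. Its log2 fold change was -0.03 ± 0.68 (SE, adjusted p = 0.982), so a change in either direction was not detectable with this spread.

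In all, 5 of the 10 genes had every shNXN library below every shControl library in CPM, against 21.5% of all tested features, and 2 of 10 had every shNXN library above, against 19.0%. An exact two-sided permutation test of 3 against 3 libraries cannot go below p = 0.1, the value that each of these 7 genes reached. FBXW11 gave an exact permutation p of 0.4 (n = 3 per group), SPSB3 one of 0.2 and TRIM50 one of 1.0. Under DESeq2 (Wald test, adjusted p under 0.05) 5 of 10 genes were called against 23.5% of features, with FBXL14 (0.49, adjusted p = 0.0171), FBXW7 (-0.87, adjusted p = 0.0102) and FBXO45 (-0.71, adjusted p = 0.0321) added to FBXL5 and FBXO11.

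**Figure D2:**
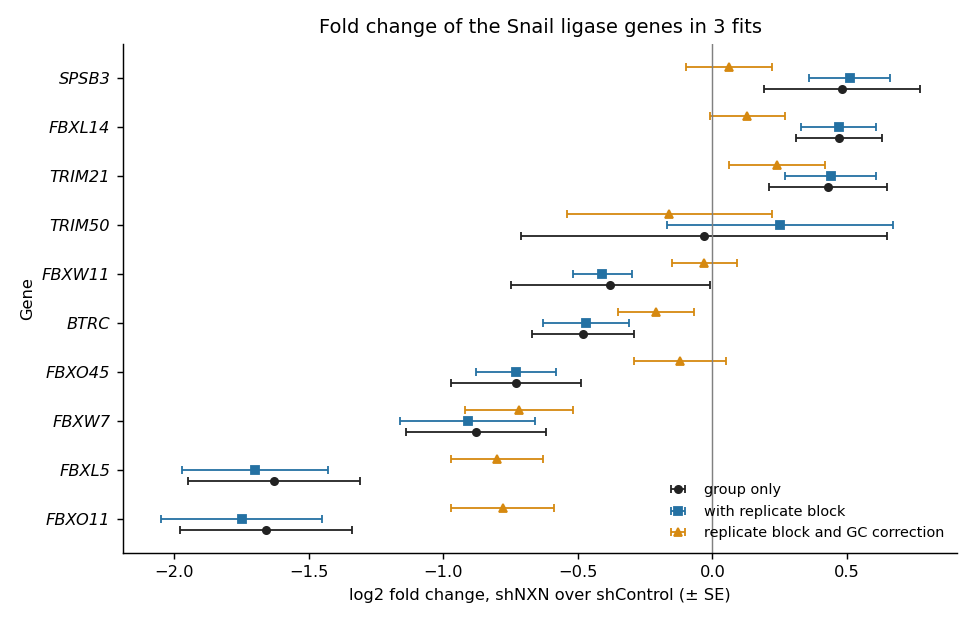
Points give the log2 fold change of shNXN over shControl (x axis) for each ligase gene (y axis) with its SE as a bar, in the fit on group only (black circles), with the replicate block (blue squares) and with the block and a GC correction (orange triangles). FBXO11 and FBXL5 moved from -1.75 and -1.70 with the block to -0.78 and -0.80 when GC content was added.

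The estimates tended to rise with the GC content of the transcripts, though not in strict order. The 6 F-box genes with negative estimates had 39.9% (FBXO11), 40.5% (FBXL5), 42.7% (FBXO45), 44.5% (FBXW11), 45.3% (BTRC) and 45.9% (FBXW7) GC in the longest annotated transcript. Those with positive estimates had 50.9% (TRIM21), 56.7% (FBXL14) and 66.9% (SPSB3), and TRIM50 had 63.4%. Spearman's rho of log2 fold change on GC content was 0.88 over the 10 genes and 0.79 over 12740 tested features. These are descriptions across genes, which share the same 6 libraries and are not independent replicates. With a GC offset fitted to each library, FBXO11 was at -0.79 ± 0.18 (SE, adjusted p = 0.104), FBXL5 at -0.81 ± 0.21 (adjusted p = 0.121) and FBXW7 at -0.71 ± 0.20 (adjusted p = 0.139). FBXO45 came to -0.13 ± 0.18 and FBXL14 to 0.13 ± 0.15. No ligase gene was called by edgeR with this offset, with or without the block, where 0.0355% and 1.66% of all features were called. At an unadjusted p under 0.05 the offset without the block left FBXO11, FBXL5 and FBXW7 among the 10. The share of all features at that unadjusted threshold was not counted, and the shares above are for adjusted p and cannot stand in for it. The offset is fitted to the trend over all features, and Spearman's rho over the 10 genes was 0.59 after it, against 0.88 before. The origin of the trend was not tested.

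**Figure D3:**
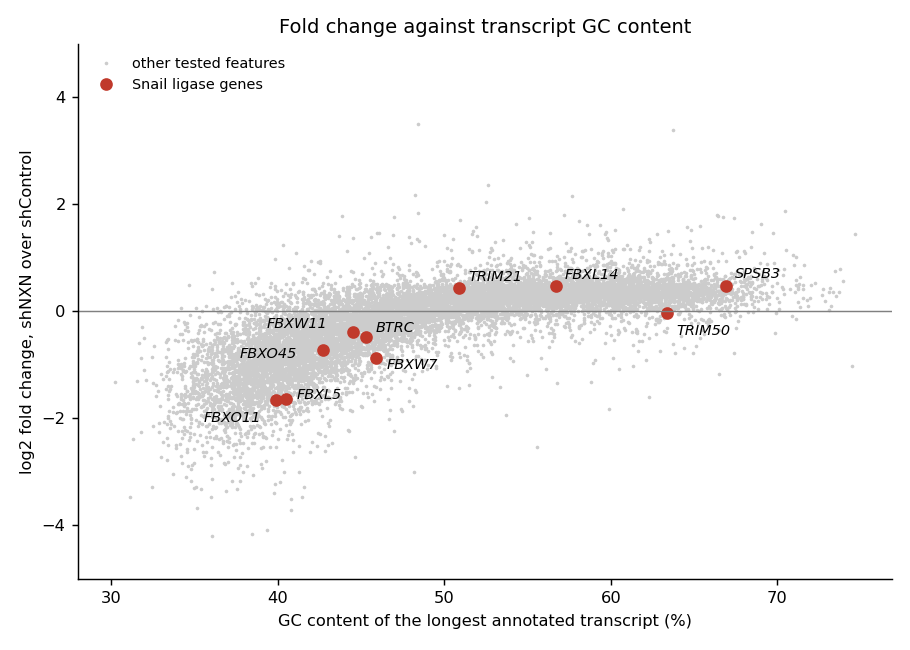
The log2 fold change of shNXN over shControl (y axis) is plotted against the GC content of the longest annotated transcript in percent (x axis), with the 10 ligase genes in red and the other tested features in grey; 6 features lie outside the plotted range. The ligase genes at 39.9% to 45.9% GC lie below 0, and those at 50.9%, 56.7% and 66.9% above it, while TRIM50 at 63.4% lies at -0.03.

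On the FPKM scale, which allows levels of different genes to be compared, the order in shControl was FBXW11 (42.5 ± 12.1 FPKM, SD, n = 3), FBXO11 (32.9 ± 5.42), FBXL5 (28.9 ± 5.61), SPSB3 (21.3 ± 7.66), FBXL14 (8.82 ± 0.263), FBXW7 (8.72 ± 3.01), BTRC (7.99 ± 3.33), TRIM21 (5.68 ± 1.16), FBXO45 (4.98 ± 1.26) and TRIM50 (4.26 ± 3.06). Neighbours in this order overlapped in their libraries except SPSB3 and FBXL14, which separated the upper 4 genes from the lower 6. In shNXN, SPSB3 had the second highest mean, with libraries at 21.8 to 33.9 FPKM, above FBXO11 at 15.7 to 26.2 and FBXL5 at 15.4 to 18.2, although SPSB3 and FBXO11 overlapped. FBXW11 ranked 7 of 55 tested F-box genes by its shControl FPKM, FBXO11 ranked 10 and FBXL5 ranked 11, while FBXO45 ranked 43.

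FBXO11 and FBXL5 fell less in FPKM than in counts. FBXO11 was at 32.9, 38.4 and 27.5 FPKM in shControl and 18.3, 15.7 and 26.2 in shNXN, a ratio of means of 0.608 against 0.316 in CPM. FBXL5 was at 26.0, 35.4 and 25.4 FPKM in shControl and 15.6, 18.2 and 15.4 in shNXN, a ratio of 0.566 against 0.323. Neither was called by limma on log2(FPKM + 1), at -0.71 ± 0.23 (SE, adjusted p = 0.103) for FBXO11 and -0.77 ± 0.19 (adjusted p = 0.0700) for FBXL5, and no ligase gene was, beside 2.04% of all features. At an unadjusted p under 0.05 this fit left FBXO11, FBXL5, FBXW7, FBXO45 and FBXL14. The share of all features at that threshold was not counted for this fit, so these genes have no background to be read against. By FPKM, 6 of the 10 genes had groups that did not overlap, against 35.5% of all features, and BTRC was no longer among them.

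Dividing a gene's count by its FPKM and the library total gives the transcript length that the authors' FPKM implies, a quantity examined after the values had been seen. For FBXO11 it was 3086, 2396 and 2971 bases in shControl and 1447, 1170 and 1604 bases in shNXN. For FBXL5 it was 1602, 1660 and 1942 bases in shControl and 788, 678 and 1533 bases in shNXN. Both were shorter in every shNXN library, whereas FBXO45 was longer, at 3923 to 4306 bases in shControl and 4693 to 5451 in shNXN. The other 7 genes overlapped, and FBXL14 (1813 to 1864 bases over all libraries) and TRIM21 (1625 to 1676) hardly varied. Non-overlap in either direction held for 3 of the 10 genes, against 20.6% of the features with a value. GENCODE 29 lists 10 transcripts for FBXO11, with coding ones of 299 to 4055 bases, and 13 for FBXL5, with coding ones of 532 to 3385 bases. Which transcripts the reads were assigned to was not tested.

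**Figure D4:**
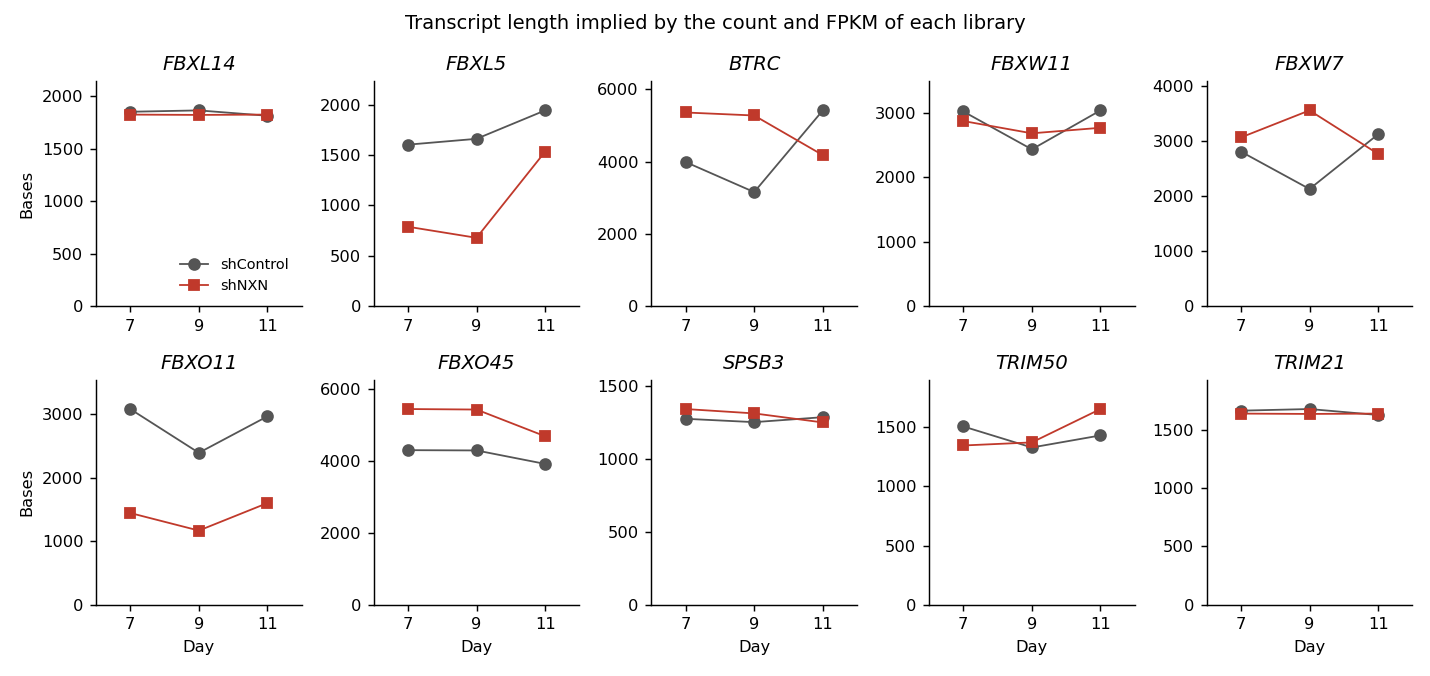
Each panel plots the transcript length in bases implied by the count and the FPKM of 1 ligase gene (y axis, starting at 0) against the day (x axis), with shControl as grey circles and shNXN as red squares. FBXO11 lies at 2396 to 3086 bases in shControl and 1170 to 1604 in shNXN, while FBXL14 and TRIM21 are flat.

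Overlapping genes may bear on some of these counts, since the sources used here do not state whether the counting used strand. FBXO11 (chr2:47789316-47905793, minus strand, GENCODE 29) overlaps MSH6 on the other strand, and its estimated counts were not whole in any of the 6 libraries. MSH6, a mismatch repair gene, had a log2 fold change of -0.76 ± 0.32 (SE, adjusted p = 0.145). FBXL5 (chr4:15604539-15681679, minus strand) overlaps FAM200B, at -1.36 ± 0.34 (SE, adjusted p = 0.0650), but had whole counts in every library. FBXO45 overlaps WDR53 (-0.65 ± 0.28, SE, adjusted p = 0.157), and SPSB3 overlaps NUBP2 (0.25 ± 0.19, adjusted p = 0.369) and EME2 (-0.15 ± 0.26, adjusted p = 0.709) on the other strand and IGFALS on its own. Counts of FBXO45 were not whole in the 3 shControl libraries (272.3, 306.89 and 412.01) but whole in shNXN (184, 173 and 243). Those of SPSB3 were not whole in 5 libraries. FBXL14, with whole counts, overlaps WNT5B on the other strand, which had at most 5 counts in a library. The part of read sharing in these fold changes was not tested.

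Split by day, the difference between the groups was smallest on day 11 for FBXO11 and FBXL5. In log2 CPM, FBXO11 was lower in shNXN by -1.99 on day 7, -2.35 on day 9 and -0.91 on day 11, and FBXL5 by -1.80, -2.27 and -1.01. FBXW7 at -0.86, -1.48 and -0.38 and BTRC at -0.39, -0.76 and -0.26 had the same order of days. FBXO45 held at -0.67, -0.83 and -0.69, and FBXL14 at 0.44, 0.54 and 0.41. FBXW11 was at -0.54, -0.41 and -0.27, SPSB3 at 0.70, 0.23 and 0.58, and TRIM21 at 0.57, 0.47 and 0.27. Within shNXN, FBXO11 and FBXL5 were each 1.01 higher on day 11 than on days 7 and 9 (log2 CPM), beside a median of 0.09 over all tested features. Within shControl FBXO11 differed by -0.25 and FBXL5 by -0.01, while FBXW11 rose in both groups (1.03 in shNXN, 0.82 in shControl). Of the lists described below, the median difference on days 7, 9 and 11 was -0.76, -0.77 and 0.06 for the cullin-RING core genes. It was -1.53, -1.52 and -0.25 for the NEDD8 genes, but -0.50, -0.34 and -0.48 for the E2 genes. With 1 library per group and day these differences have no test of their own.

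A group by day interaction, with day as a number and 2 residual degrees of freedom, was called by edgeR for 0 of the 10 genes and 0.0% of all features, and by DESeq2 for 0 of the 10 and 0.0284% of all features. At an unadjusted p under 0.05 there were again 0 of the 10, beside 152 of 14071 features (1.08%) under edgeR. With day 11 set against days 7 and 9, none of the 10 was called by edgeR either, beside 0.0355% of all features. An unadjusted p under 0.05 was seen for 3 of the 10, against 13.4% of all features, namely FBXO11 (1.24, adjusted p = 0.169), FBXL5 (1.05, adjusted p = 0.243) and TRIM50 (1.90, adjusted p = 0.161). On days 7 and 9 alone, a choice made after seeing the data, edgeR called FBXO11 (-2.15, adjusted p = 0.000477), FBXL5 (-2.07, adjusted p = 0.000604), FBXW7 (-1.18, adjusted p = 0.00694) and FBXO45 (-0.75, adjusted p = 0.0271), which are 4 of 10 against 31.8% of features. The same 4 were called without the shNXN library of day 11 alone, against 25.8% of features.

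**Figure D5:**
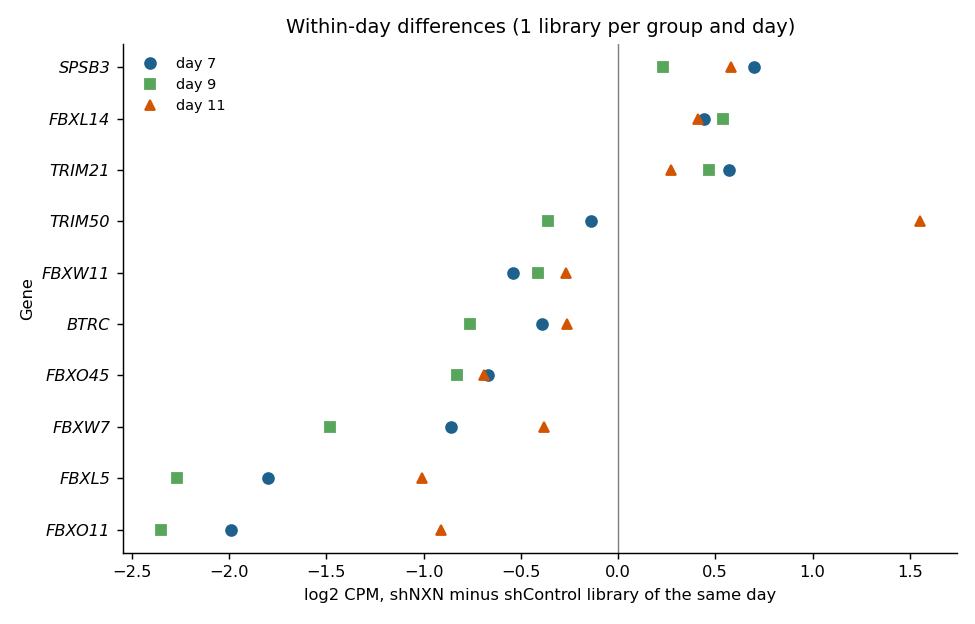
For each ligase gene (y axis) the log2 CPM of the shNXN library minus that of the shControl library of the same day is plotted (x axis), with day 7 as blue circles, day 9 as green squares and day 11 as orange triangles. FBXO11 and FBXL5 lie at -2.35 to -0.91, and TRIM50 is the gene whose sign differs between days.

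Snail represses genes through E-box elements, so the 250 bases before the RefSeq start sites (GRCh38.p14) were searched for CAGGTG or CACCTG, the same motif read on either strand. A window was found for 9 of the 10 genes and not for BTRC. Of their 15 windows 2 held the motif, or 13.3%, beside 17.5% of all 35116 windows. The windows with it are shown first, with the E-box in capitals, and after them the first-listed start sites of the 2 called genes, which held none. All 4 genes lie on the minus strand, and each sequence runs 5′ to 3′ towards the start, at chr16:1782572-1782821 for SPSB3, chr7:73325576-73325825 for TRIM50, chr2:47906499-47906748 for FBXO11 and chr4:15655358-15655607 for FBXL5.
SPSB3: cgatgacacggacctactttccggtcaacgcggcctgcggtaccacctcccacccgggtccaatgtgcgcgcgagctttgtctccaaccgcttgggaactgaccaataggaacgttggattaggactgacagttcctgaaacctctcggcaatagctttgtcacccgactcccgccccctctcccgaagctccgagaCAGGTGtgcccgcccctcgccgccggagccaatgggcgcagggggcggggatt
TRIM50: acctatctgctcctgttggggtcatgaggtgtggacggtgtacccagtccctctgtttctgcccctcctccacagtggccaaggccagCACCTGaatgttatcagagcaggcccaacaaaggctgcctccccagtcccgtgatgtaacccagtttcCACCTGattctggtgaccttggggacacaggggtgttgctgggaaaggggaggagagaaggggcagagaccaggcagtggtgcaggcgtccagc
FBXO11: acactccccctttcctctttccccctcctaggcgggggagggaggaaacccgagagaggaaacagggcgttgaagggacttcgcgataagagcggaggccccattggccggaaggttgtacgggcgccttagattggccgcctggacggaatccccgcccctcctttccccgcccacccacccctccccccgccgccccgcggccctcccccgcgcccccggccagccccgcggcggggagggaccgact
FBXL5: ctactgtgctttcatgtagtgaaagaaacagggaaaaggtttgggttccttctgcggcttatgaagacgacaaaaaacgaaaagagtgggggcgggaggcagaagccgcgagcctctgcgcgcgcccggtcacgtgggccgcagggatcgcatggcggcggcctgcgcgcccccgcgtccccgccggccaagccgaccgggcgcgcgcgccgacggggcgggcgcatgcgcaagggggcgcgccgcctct
The SPSB3 motif begins 53 bases before the start, and those of TRIM50 begin 162 and 94 bases before it. The FBXO11 and FBXL5 windows shown had 71.6% and 68.8% GC, although the transcripts of these genes were the poorest in GC of the 10. The window of the second FBXO11 start site had 35.2% GC. A match describes the letters in a window and not a bound site.

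Other F-box genes were taken as the family background. Of 55 tested, edgeR called 4 lower and 0 higher, and 26 had an unadjusted p under 0.05. Those called included FBXO11, FBXL5 and FBXO5 (-1.63, adjusted p = 0.0452), an inhibitor of the anaphase-promoting complex. With the block 6 were called higher and 9 lower. Of all tested features, 3.39% were called on group alone, 32.9% had an unadjusted p under 0.05 and 23.3% were called with the block. These shares are also the background for the counts of every list that follows. FBXO11 and FBXL5 had the second and the third lowest log2 fold change of the 55, after FBXO30 (-1.86, adjusted p = 0.0530). FBXW7 ranked 11 and FBXO45 ranked 14 from the lowest. The 48 F-box genes other than the ligase genes had a median of 0.03, with 25 positive and 23 negative estimates. Among 46 tested TRIM genes 1 was called lower, TRIM23 (-1.48, adjusted p = 0.0426), and none higher (12 had an unadjusted p under 0.05, and 4 higher and 5 lower were called with the block), with a median of 0.08. The 3 SPSB genes tested were all positive, between 0.26 and 0.48, and none was called (0 at an unadjusted p under 0.05 and 0 with the block).

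Of the 9 cullin-RING core and scaffold genes, edgeR called 0 on group alone (4 at an unadjusted p under 0.05, against 32.9% of all features). With the block, where 23.3% of all features were called, 2 were lower. These were CUL5, the scaffold of SPSB3 (-1.64 ± 0.34, SE, adjusted p = 0.0509, and 0.0252 with the block), and ELOC, the elongin adaptor that joins it to SOCS-box receptors (-1.03 ± 0.30, adjusted p = 0.0781, and 0.0377 with the block). SKP1, the adaptor of F-box proteins, was at -1.15 ± 0.46 (adjusted p = 0.137) and CUL1 at -0.45 ± 0.27 (adjusted p = 0.268). In FPKM the CUL5 estimate was of the opposite sign, at 0.17 ± 0.25 (limma, adjusted p = 0.660), while ELOC was at -1.34 ± 0.32 (adjusted p = 0.0672). With the GC offset CUL5 was at -0.22 (adjusted p = 0.790, and -0.21 with the block, adjusted p = 0.732) and ELOC at -1.16 (adjusted p = 0.104, and -1.20 with the block, adjusted p = 0.0605), so no core gene was called.

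Of the 10 E2 genes, 1 was called lower on group alone, UBE2W (-2.34 ± 0.41, SE, adjusted p = 0.0452), which places ubiquitin on protein amino ends. With the block 4 were lower and 1 higher, against 23.3% of all features called in either direction. The lower ones were UBE2W, UBE2D3 (-1.04, adjusted p = 0.0156), UBE2V2 (-1.09, adjusted p = 0.0250) and UBE2D2 (-0.52, adjusted p = 0.0313). The higher one was CDC34 (0.41, adjusted p = 0.0431), the chain-extending E2 of SCF ligases. UBE2D3 was at -0.04 in FPKM (limma, adjusted p = 0.853) and at 0.11 with the block and GC offset (adjusted p = 0.620), and UBE2V2 was positive in the latter fit (0.49, adjusted p = 0.151). Cullins work only when NEDD8 is attached. Of the 11 genes for attaching or removing it, or for exchange on cullins, 1 was called lower, DCUN1D1 (-1.90 ± 0.33, SE, adjusted p = 0.0452), a NEDD8 ligase subunit. With the block 5 were lower and 2 higher, against 23.3% of all features called in either direction, among them the subunits of the NEDD8-activating enzyme UBA3 (-1.58, adjusted p = 0.0156) and NAE1 (-1.78, adjusted p = 0.0230), the exchange factor CAND1 (-1.84, adjusted p = 0.0274) and the NEDD8-conjugating enzyme UBE2M (0.54, adjusted p = 0.0355). The others were DCUN1D1 and the COP9 signalosome subunits COPS2 (-3.69, adjusted p = 0.0260) and COPS6 (0.52, adjusted p = 0.0384). On the FPKM scale CAND1 was at 0.02 ± 0.15 (limma, SE, adjusted p = 0.923), while UBE2W was still called lower (-1.62, adjusted p = 0.0454). DCUN1D1 (-1.89, adjusted p = 0.0874), COPS2 (-2.83, adjusted p = 0.0742) and UBA3 (-0.82, adjusted p = 0.0708) stayed negative there without a call. In that fit 8 of the NEDD8 genes were negative and 3 positive, and of the E2 genes 6 were negative and 4 positive. The median log2 fold change was -0.46 for the E2 genes and -1.13 for the NEDD8 genes, whose transcripts had median GC contents of 44.0% and 40.4% beside 48.4% over all features. After the GC offset these medians were -0.06 and -0.35, and no gene of either list was called (1 with the block, COPS5, at 0.87 and an adjusted p of 0.0396).

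Of the 9 kinases that mark Snail or prime its degron, 0 were called on group alone (3 at an unadjusted p under 0.05, against 32.9% of all features). With the block, where 23.3% of all features were called, ATM was lower (-2.02 ± 0.35, SE, adjusted p = 0.0244) and CSNK1E higher (0.40 ± 0.10, adjusted p = 0.0431). Both calls were lost when the GC offset was added to the block, at -0.95 for ATM (adjusted p = 0.106) and 0.05 for CSNK1E (adjusted p = 0.814). GSK3B, which phosphorylates the β-TrCP degron, was at -0.61 ± 0.31 (adjusted p = 0.206), and PRKD1, the kinase that precedes FBXO11, at -0.51 ± 0.34 (adjusted p = 0.314). Of 7 deubiquitinases reported to act on Snail 4 were tested, USP1 was called lower (-1.39 ± 0.28, SE, adjusted p = 0.0492) and PSMD14 only with the block (-0.51, adjusted p = 0.0339), and the other 2 were not called. With the GC offset USP1 was at -0.53 (adjusted p = 0.366, and -0.50 with the block, adjusted p = 0.266), so its call was lost. PSMD14 had the opposite sign after the GC offset (1.22, adjusted p = 0.121, and 1.29 with the block, adjusted p = 0.0317).

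The tested EMT factors that these ligases act on were at most at 12.2 CPM in a library (ZEB1 in shControl on day 11). SNAI2 was at 2.95, 2.09 and 2.70 CPM in shControl and 1.22, 1.10 and 1.29 in shNXN (log2 fold change -1.10 ± 0.30, SE, adjusted p = 0.0725, and 0.0474 with the block). TWIST1 had 8, 3 and 4 counts in shControl and 21, 14 and 19 in shNXN (1.80 ± 0.48, adjusted p = 0.0700, and 0.0394 with the block). ZEB1 was at 4.33, 3.57 and 12.2 CPM in shControl and 1.89, 1.72 and 4.51 in shNXN, with overlapping groups. Its log2 fold change was -1.31 ± 0.60 (SE, adjusted p = 0.172, and 0.0246 with the block). ZEB2, with at most 8 counts in a library, was not tested. None of the 4 tested was called by edgeR on group alone, 2 had an unadjusted p under 0.05, and none was called once the GC offset was added, where the smallest of their adjusted p-values was 0.138 with the block and 0.197 without it.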

How the data were processed

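RNA sequencing was measured in 6 Hep-3B libraries, grouped by their labels. The authors deposited an estimated count and an FPKM value for each feature. The aligner, counter, annotation and strand setting are not given in the sources used here, and the submitters' processing notes name the mouse builds GRCm38 and mm10 although the identifiers are human. Symbols came from a gene name table (18966 of 20314 Ensembl identifiers matched), and 0 columns lacked a sample. The ligase genes and all lists were chosen with earlier results of these data known.

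Estimated counts, rounded to whole numbers, entered edgeR 4.0.16 under R 4.3.3 with TMM, filterByExpr and the quasi-likelihood test of group, over all features. SE is the log2 fold change divided by the square root of F. CPM used TMM factors, and log2 CPM a prior count of 2. The GC offset was a natural spline (5 degrees of freedom) on the longest GENCODE 29 transcript, with GC known for 90.5% of tested features and all 10 ligase genes. DESeq2 1.42.0, limma 3.58.1, other scalings and filters, the replicate block and each library left out were the alternatives. Replicate numbers follow the day, and same-day libraries of the groups deviated together (correlations of 0.304, 0.309 and 0.451), so the numbers pair the samples. The main test is nevertheless of group alone, and the blocked value is given where it changes a call. Replicates of a group differed by more than sampling noise (chi-square per gene 21.2 to 83.0). On simulated counts for 14071 genes, the edgeR group test recovered 96.0% of 200 changed genes with 7 false calls. The simulated counts had a fixed dispersion, 4-fold or 2-fold changes and no day or GC trend. These rates therefore check the code only and do not carry over to the 6 libraries. Named were the 10 ligase genes, NXN, the EMT factors and, per list, genes called with or without the block, at most 5 by smallest p on group alone. SKP1, CUL1, GSK3B, PRKD1, COPS2, COPS5, COPS6, TRIM23, FBXO30, FBXO5 and the overlapping genes were named after their values were seen. One result among the other F-box genes is not reported here.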

Additional observations from a re-analysis of the deposited data

Results flagged for a closer look

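TRIM50 was the only one of the 10 ligase genes whose difference between the groups changed sign between days, with shNXN minus shControl at -0.14 on day 7, -0.36 on day 9 and 1.55 on day 11 in log2 CPM, a span of 1.91. Each of these rests on 1 library per group, with 18 counts in shControl on day 11, so the difference between days was not tested by day. The interaction of group with day was not called by edgeR (adjusted p = 1.0, and 0.161 for day 11 against the earlier days).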

How the results depend on the processing

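The number of ligase genes called was 2 and stayed at 2 under RLE factors, no filter, library size only and at least 10 counts in every library. It was 5 with DESeq2, 3 with the replicate block, 4 on days 7 and 9 only (chosen after seeing the data), 0 with the GC correction, 0 when the block was added to it, and 0 with limma on either FPKM pseudocount. The block changed no other call of a ligase gene than that of FBXO45. The features called were 477 in all, and 3311 under DESeq2, 826 after RLE scaling, 929 by library size alone, 818 with no filter, 3272 with the replicate block, 5 with the GC correction, 233 with both, 287 and 66 with limma at pseudocounts of 1 and 0.1, and 4519 on days 7 and 9 only. With each library left out in turn, 0 to 4 ligase genes and 0 to 3706 features were called, the median log2 fold change of the ligase genes ran from -0.68 to -0.31 and that of NXN from -1.90 to -1.67. The NXN call was lost without shControl day 7 (adjusted p = 0.131), shControl day 11 (0.0633), shNXN day 7 (0.225) and shNXN day 9 (0.162). The median of the ligase genes moved from -0.43 to -0.17 with the GC correction and -0.14 with the block added. TRIM50 reversed from -0.03 to 0.01 under both DESeq2 and RLE factors, 0.04 without a filter, 0.25 with the replicate block, 0.17 and 0.33 in FPKM with pseudocounts of 1 and 0.1, and, with 1 library left out, 0.34 without shControl day 7, 0.39 without shControl day 9 and 0.25 without shNXN day 11 (-0.45 to 0.39 over all 6). The other 9 ligase genes kept their sign in all 17 alternatives. The cause of these changes was not tested. Low counts, such as the 18 of TRIM50 in shControl on day 11, carry wide counting error.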
